A study of Mus musculus with 25 samples.

Results

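The levels of 10 genes that the transcription factor p53 is known to switch on were followed across 25 RNA sequencing libraries: Cdkn1a, Bax, Bbc3, Ccng1, Sesn1, Sesn2, Zmat3, Trp53inp1, Phlda3 and Aen. They were chosen by name, with earlier results of these data known, and all 10 were found among the 24984 genes of the count table. The libraries came from BMEL cells, a clonal line of bipotential progenitors from embryonic mouse liver. The study describes the p53 of these cells as wild type. Control cultures carried an empty vector (WT, n = 3), and the other cultures carried lentiviral H-Ras G12V, a permanently active Ras, and had been sorted by the fluorescence of the reporter on the same vector into a weaker (RasLOW, n = 3) and a stronger (RasHIGH, n = 3) population, whose Ras levels overlap. BMEL-Ras cells injected into the liver of athymic nude mice, which lack mature T cells, gave tumours at both that organ and the peritoneum, and from each of 4 mice the fluorescent tumour cells and the negative stromal cells of both sites were sorted (4 groups, n = 4 each). The labels do not state which Ras population the mice received, and the age of the mice is not given in the sources used here.

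p53 is held at a low level by Mdm2, which marks it for degradation and is itself a p53 target, and p19ARF, made from Cdkn2a, restrains Mdm2. When DNA damage, oncogenes or other stresses free p53, it binds pairs of short repeats near its target genes and raises their transcription. Some targets stop the cell cycle, others open mitochondria for apoptosis, and others adjust growth signalling, RNA or redox state. In liver the pathway restrains the outgrowth of cells that carry an active oncogene. Many cell-cycle genes are repressed when p53 acts, through p21 and the DREAM complex.

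The candidate binding sequences near the members are shown first, since p53 acts through such sites. The mouse genome NCBIM37 (mm9) was searched 3000 bases to each side of the annotated start of each gene for the 20-base p53 consensus, which is 2 copies of a 10-base repeat without a spacer and reads alike on both strands, with the 8 core letters of the repeats required to match. The best matches in 5 members are given below on the strand of the gene, with the 20 bases of the match in capitals.

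Zmat3, intron, chr3:32263248-32263277, minus strand, 20 of 20 letters: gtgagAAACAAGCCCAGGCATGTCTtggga
Cdkn1a, upstream of the gene, chr17:29227868-29227897, plus strand, 19 of 20 letters: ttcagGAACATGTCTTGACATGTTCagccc
Ccng1, intron, chr11:40568433-40568462, minus strand, 19 of 20 letters: ccggaACGCAAGCCCGGGCTAGTCTgcgcc
Bbc3, upstream of the gene, chr7:16894830-16894859, plus strand, 17 of 20 letters: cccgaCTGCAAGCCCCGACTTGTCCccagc
Aen, exon, chr7:86040818-86040847, plus strand, 17 of 20 letters: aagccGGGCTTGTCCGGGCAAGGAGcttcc

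A match of at least 19 letters was present in 3 of the 10 members, against 0.751% of 22380 protein-coding genes, and one of at least 17 letters in 5 members, against 14.3% of those genes. The Cdkn1a match began at position -51 relative to the gene start and the Bbc3 match at -130, whereas those of Aen, Ccng1 and Zmat3 began 83, 356 and 1328 bases past it. The gene start here is the outermost annotated one, and distances to other starts of a gene were not measured. Aen had another match of 17 letters, not shown, in an intron 1548 bases past the start. Sites with a spacer or farther away were not searched, and a match describes letters only.

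Total counts ran from 20818989 to 51241336 per library, so that 3 counts corresponded to between 0.0576 and 0.141 CPM, the count divided by the scaled library total and given per 1e+06 reads, and every member exceeded this floor in every library. The study describes the culture libraries as independent biological samples, but what was kept separate between them is not given, so p-values among cultures measure the spread between these samples. Krt8 and Krt19, keratins of the liver progenitor, lay at 2521 CPM or more and 1386 CPM or more in all cultures and 1875 CPM or more in all tumour cell libraries, whereas Epcam, another epithelial marker, was at most 0.838 CPM in each of these. Ptprc, the pan-leukocyte antigen CD45, did not exceed 0.18 CPM in any culture or 12.2 CPM in any tumour cell library, and reached 501 to 1020 CPM in the stromal libraries. Among the cultures RasLOW replicate 2 and RasHIGH replicate 1 stood apart from the other Ras cultures, and were singled out after the values had been seen. The counts of members and of further targets called are given with and without these 2 cultures.

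The members differed widely in abundance. Per kilobase of exon, mean levels in WT cultures ran from 1.77 CPM for Sesn1 to 363 CPM for Ccng1, with Cdkn1a at 243, Phlda3 at 119 and Bax at 106 CPM per kilobase. Ccng1 was thus the most abundant of the 10 in WT cells. In stroma of the liver the order was another one, with Cdkn1a at 531 and Ccng1 at 36.9 CPM per kilobase. Reads of Sesn2 may include some of Gm12981, an unclassified transcript on the same strand that overlaps it by 6089 bases.

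**Figure D1:**
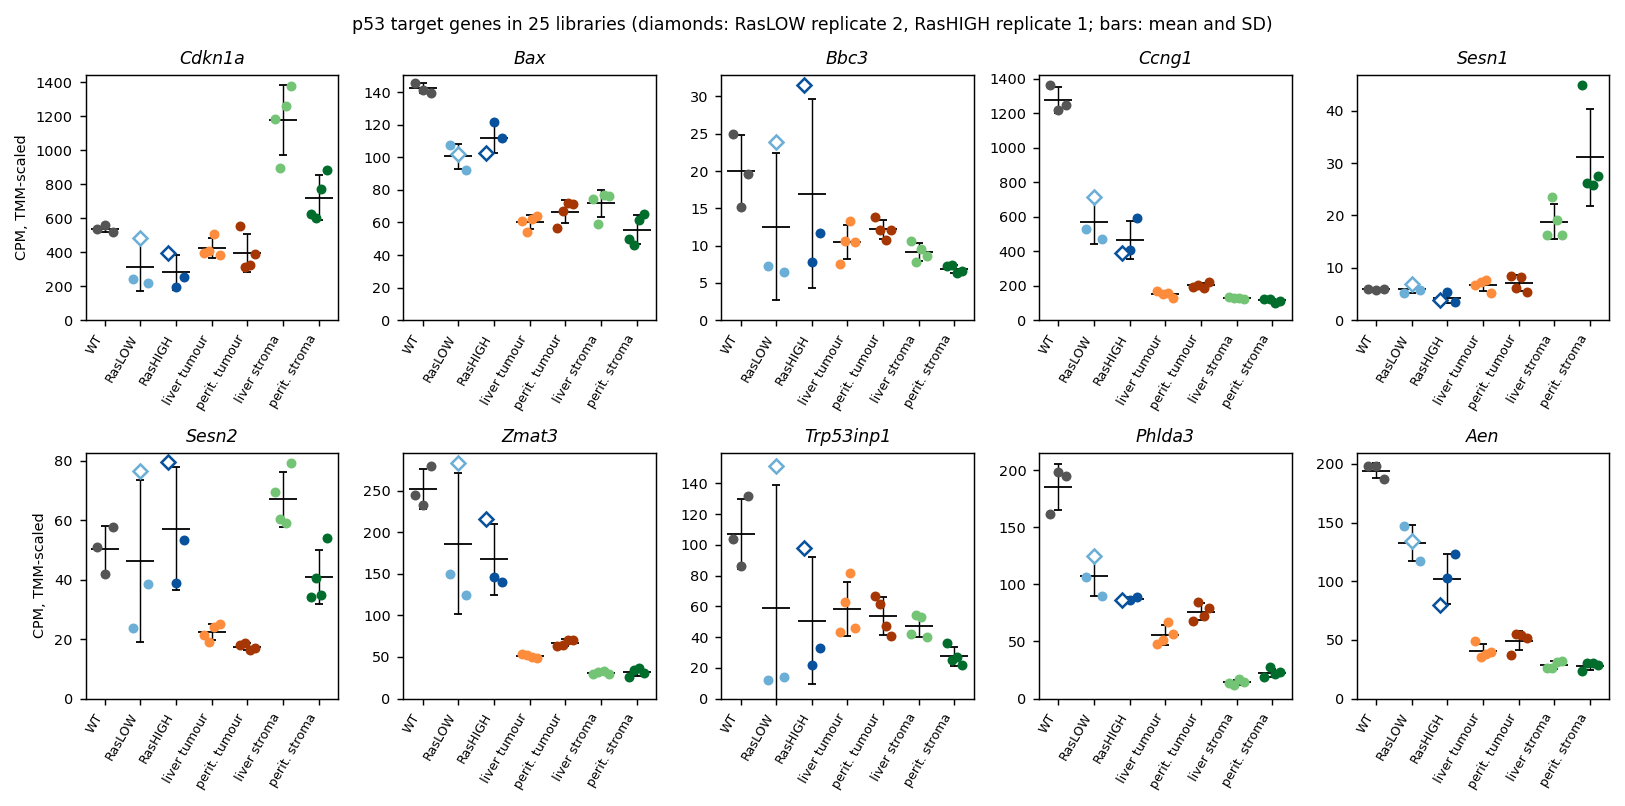
Level of each of the 10 genes (y axis, CPM scaled by TMM, starting at 0) in the 25 libraries, by group (x axis). Points are libraries, the dash is the group mean and the bars are 1 SD. Open diamonds mark RasLOW replicate 2 and RasHIGH replicate 1, which for Trp53inp1 sit at 151 and 97.8 CPM while the remaining Ras cultures sit between 12.1 and 32.6 CPM.

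Which members differ between Ras-expressing cultures and their controls was asked first. Each comparison used edgeR's quasi-likelihood test, p-values were adjusted by Benjamini-Hochberg across every gene in the fit, and a gene was called when its adjusted p was under 0.05. In RasLOW cells 4 of the 10 members were lower than in WT (Ccng1, Phlda3, Aen and Bax) and 0 were higher, against 4.05% and 1.92% of the 12307 genes tested. In RasHIGH cells 5 were lower (Ccng1, Phlda3, Aen, Cdkn1a and Zmat3) and 0 were higher, against 11.7% and 10.9% of 12331 genes. The median log2 fold change of the 10 was -0.63 in RasLOW and -0.80 in RasHIGH cells, and that of all genes tested was 0.01 and -0.02. Both comparisons share the 3 WT cultures. In bulk RNA a lower level in every cell and fewer cells with the transcript cannot be told apart.

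Ccng1 encodes cyclin G1, which brings a phosphatase to Mdm2 and so takes part in the feedback on p53. It lay at 1360.5, 1219 and 1245 CPM in the 3 WT cultures, at 526, 714 and 469.6 CPM in RasLOW and at 392, 409 and 594 CPM in RasHIGH cells. All 6 Ras cultures were below all WT cultures, and RasLOW and RasHIGH overlapped. The log2 fold change was -1.19 (SE 0.20, adjusted p = 0.0196) in RasLOW and -1.49 (SE 0.19, adjusted p = 0.00259) in RasHIGH cells.

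Phlda3 encodes a small pleckstrin-homology protein that competes with Akt for membrane lipids and so restrains Akt. Its levels were 162, 199 and 195 CPM in WT, 106, 125 and 90.0 CPM in RasLOW and 86.6, 86.3 and 89.2 CPM in RasHIGH cultures. The 3 groups did not overlap, and the RasHIGH cultures were nearly alike. It fell by 0.82 (SE 0.17, adjusted p = 0.0362) on the log2 scale in RasLOW and by 1.12 (SE 0.12, adjusted p = 0.00149) in RasHIGH cells.

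Aen, a nuclease that cuts DNA during apoptosis, was at 198, 198 and 187 CPM in WT, at 147, 134 and 117 CPM in RasLOW and at 80.1, 103 and 123 CPM in RasHIGH cultures. Each Ras culture lay below each WT culture. The log2 fold change was -0.58 (SE 0.13, adjusted p = 0.0480) in RasLOW and -0.96 (SE 0.18, adjusted p = 0.00972) in RasHIGH cells.

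Bax, which forms pores in the outer mitochondrial membrane, was at 146, 142 and 139.7 CPM in WT, at 107, 102 and 92.5 CPM in RasLOW and at 103, 122 and 112 CPM in RasHIGH cultures. The Ras cultures again all lay below WT, by a smaller distance. The fall of 0.53 (SE 0.12, adjusted p = 0.0476) on the log2 scale passed in RasLOW cells, and the value of -0.38 (SE 0.12, adjusted p = 0.0622) in RasHIGH cells did not. Without the filter on low counts neither Bax (adjusted p = 0.0736) nor Aen (adjusted p = 0.0638) passed in RasLOW cells. With Cdkn1a, 5 of the 10 members had all 6 Ras cultures below all WT cultures, against 9.86% of 13184 genes with a mean of at least 1 CPM.

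Of the other 6 members, Cdkn1a, Bbc3, Sesn2, Zmat3 and Trp53inp1 were more variable among Ras cultures and shared a pattern. Their coefficients of variation within a Ras population ran from 25.3% to 135%, against 1.80% to 24.1% for Ccng1, Phlda3, Aen, Bax and Sesn1. Cdkn1a encodes p21, the inhibitor of cyclin-dependent kinases that carries much of the cell-cycle arrest by p53. Its level was 539, 558 and 520.4 CPM in WT, 244, 483 and 219 CPM in RasLOW and 396, 194 and 254 CPM in RasHIGH cultures. All 6 Ras cultures were below WT, but RasLOW replicate 2 and RasHIGH replicate 1 were well above the others. The log2 fold change was -0.98 (SE 0.24, adjusted p = 0.0268) in RasHIGH and -0.80 (SE 0.31, adjusted p = 0.186) in RasLOW cells.

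Trp53inp1, a stress protein that helps p53 to activate apoptotic targets and takes part in autophagy, showed the widest spread. WT cultures lay at 104, 86.3 and 132 CPM, RasLOW cultures at 12.1, 151 and 13.8 CPM and RasHIGH cultures at 97.8, 21.6 and 32.6 CPM. The same pair of cultures was within or above the WT range, and the remaining Ras cultures were far below it. Neither comparison passed, with log2 fold changes of -0.86 (SE 0.91, adjusted p = 0.662) in RasLOW and -1.13 (SE 0.52, adjusted p = 0.168) in RasHIGH cells.

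Zmat3 encodes a zinc-finger protein that binds RNA and shapes splicing downstream of p53. It was at 245, 233 and 279.5 CPM in WT, at 150.3, 283 and 125 CPM in RasLOW and at 216, 146 and 140.4 CPM in RasHIGH cultures. RasLOW replicate 2 was above every WT culture, and the other 5 Ras cultures were below all of them. The log2 fold change was -0.63 (SE 0.18, adjusted p = 0.0477) in RasHIGH and -0.46 (SE 0.31, adjusted p = 0.453) in RasLOW cells. The RasHIGH call was lost with RLE scaling (adjusted p = 0.0625) and without the filter on low counts (adjusted p = 0.0638).

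Bbc3 encodes Puma, which unleashes Bax by binding its Bcl2-type guardians. Its levels were 24.96, 15.2 and 19.6 CPM in WT, 7.30, 23.9 and 6.44 CPM in RasLOW and 31.5, 7.79 and 11.6 CPM in RasHIGH cultures. RasHIGH replicate 1 was above every WT culture and 4 Ras cultures were below all of them. The log2 fold changes of -0.69 (SE 0.52, adjusted p = 0.516) in RasLOW and -0.28 (SE 0.49, adjusted p = 0.729) in RasHIGH cells did not pass.

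The Sestrins sense leucine and stress and restrain the growth kinase complex mTORC1. Sesn2, which is also induced by amino acid and endoplasmic reticulum stress, was at 50.8, 41.9 and 57.8 CPM in WT, at 23.7, 76.5 and 38.5 CPM in RasLOW and at 79.4, 38.8 and 53.2 CPM in RasHIGH cultures. The pair of cultures exceeded the whole WT range. Log2 fold changes were -0.14 (SE 0.40, adjusted p = 0.896) and 0.14 (SE 0.26, adjusted p = 0.740).

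Sesn1, the least abundant member, was at 5.93, 5.82 and 5.88 CPM in WT, at 5.28, 6.86 and 5.67 CPM in RasLOW and at 3.94, 5.34 and 3.56 CPM in RasHIGH cultures. It did not follow the pair, and neither comparison passed (log2 fold changes -0.02, SE 0.23, adjusted p = 0.983, and -0.49, SE 0.23, adjusted p = 0.179).

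RasLOW replicate 2 and RasHIGH replicate 1 were thus both above the 4 remaining Ras cultures for 5 of the 10 members, namely Cdkn1a, Bbc3, Sesn2, Zmat3 and Trp53inp1, against 19.4% of the 13184 genes with a mean of at least 1 CPM. They were both below the remaining cultures for 0 of 10 members, against 19.2% of those genes. The pair was singled out after the values had been seen, so these counts are descriptions and not tests. The libraries of this pair carry consecutive identifiers in the sample labels. RasLOW replicate 3 and RasHIGH replicate 2 also carry consecutive identifiers, and were both above the others for 0 members, against 1.71% of those genes, and both below them for 1, against 3.84%. Across the 6 Ras cultures log2(CPM + 1) of Trp53inp1 correlated with that of Bbc3 at r = 0.953, of Sesn2 at r = 0.931, of Zmat3 at r = 0.924 and of Cdkn1a at r = 0.922, against 0.304 for Ccng1, 0.377 for Phlda3 and -0.332 for Aen. These are descriptions over 6 cultures, in which the pair carries most of the spread.

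**Figure D2:**
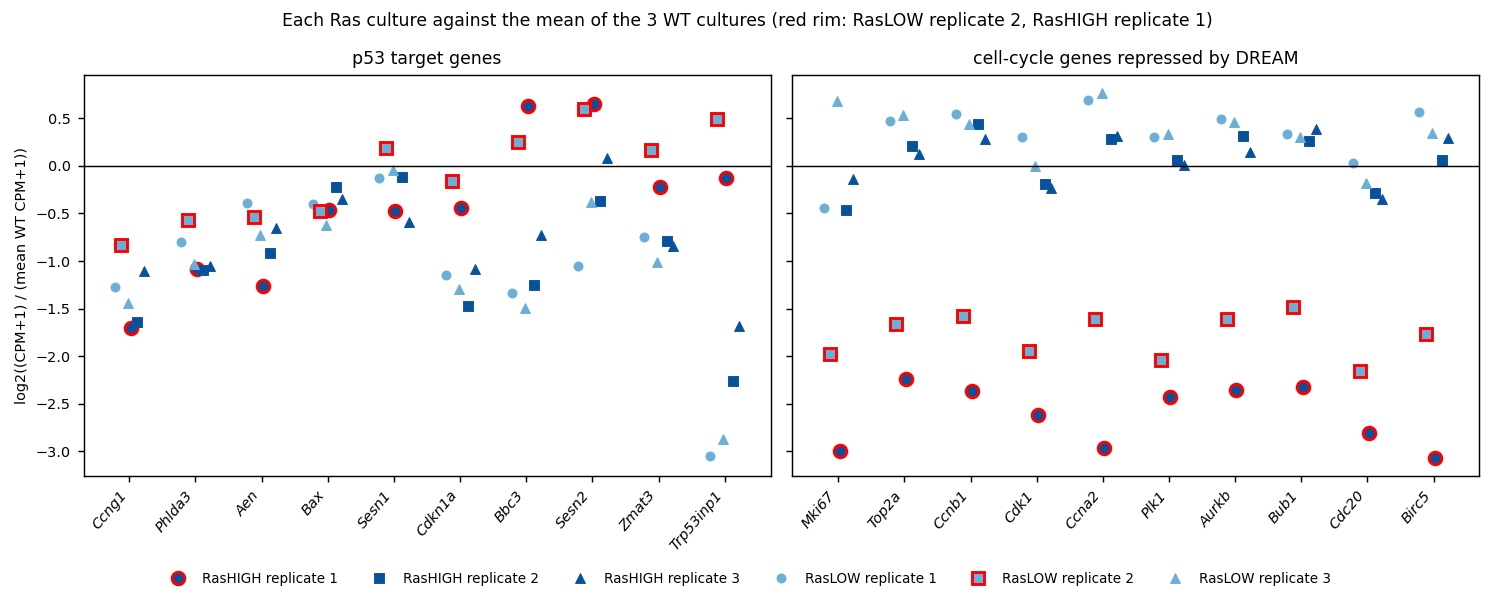
Log2 ratio of each of the 6 Ras cultures to the mean of the 3 WT cultures (y axis, on CPM + 1) for the 10 p53 target genes (left) and for 10 cell-cycle genes repressed by the DREAM complex (right). Symbols show replicates, shades show the populations, and red rims mark RasLOW replicate 2 and RasHIGH replicate 1, which lie below the remaining Ras cultures for all 10 cell-cycle genes and above them for the 5 genes at the right of the left panel.

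The same pair of cultures had the lowest levels of the cell-cycle genes. All 10 genes of a list of DREAM targets (Mki67, Top2a, Ccnb1, Cdk1, Ccna2, Plk1, Aurkb, Bub1, Cdc20 and Birc5) were lower in both than in any of the remaining Ras cultures. The same held for 19.2% of all genes with a mean of at least 1 CPM. These cell-cycle genes were singled out after their values were seen. Mki67, a marker of dividing cells, was at 344, 371 and 409 CPM in WT, at 275, 94.5 and 603 CPM in RasLOW and at 46.1, 272 and 342 CPM in RasHIGH cultures. Ccnb1, the mitotic cyclin B1, was at 31.3 CPM in RasLOW replicate 2 and at 17.8 CPM in RasHIGH replicate 1, against 117 to 140 CPM in the remaining Ras cultures and 93.8 to 98.7 CPM in WT. The labels describe all 9 cultures as growing exponentially. None of the 10 cell-cycle genes was called between either Ras population and WT. The part of this difference between cultures in the member values was not tested.

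Leaving out libraries moved the calls in the direction of these levels. The share of all genes called in each refit is not given, so the counts below cannot be set against it. Without RasLOW replicate 2, 8 of 10 members were called lower in RasLOW cells. Cdkn1a then had a log2 fold change of -1.27 (adjusted p = 0.00183), Trp53inp1 of -3.10 (adjusted p = 0.00134), Bbc3 of -1.59 (adjusted p = 0.00915) and Zmat3 of -0.92 (adjusted p = 0.00864). Without any one of the other 5 libraries 0 members passed, and the adjusted p of Ccng1, Phlda3, Aen and Bax then lay between 0.0537 and 0.191. Without RasHIGH replicate 1, 7 members were called lower in RasHIGH cells, among them Bbc3 (log2 fold change -1.06, adjusted p = 0.0245) and Trp53inp1 (-2.004, adjusted p = 0.00163). Without any one of the other 5 libraries Ccng1, Phlda3 and Aen remained. WT replicates 1 and 2 were run in sequencing lane 3 and every Ras culture in lane 4, and when only WT replicate 3, from lane 4, stood for the controls, assumed to vary like the Ras cultures, 0 members passed in either comparison, with log2 fold changes of the same sign for all but Sesn2 in RasHIGH cells.

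RasHIGH cells were also compared with RasLOW cells, to ask about Ras dose. By edgeR's test 0 of 10 members were called, with 0 at an unadjusted p under 0.05, and DESeq2 also called 0. Of all 11962 genes tested, 0.0585% were higher and 0.0167% lower. Phlda3 was the one member whose groups did not overlap, against 15.7% of the genes tested, with a log2 fold change of -0.29 (SE 0.17, adjusted p = 0.661). Cdkn1a, at -0.17 (SE 0.38), and Trp53inp1, at -0.25 (SE 1.03), had SEs larger than their differences. Trp53 (0.06, adjusted p = 0.961) and Mdm2 (0.85, adjusted p = 0.233) were not called either.

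The other genes of the pathway, from a list of 24 further p53 targets, were mostly lower in Ras cells. That list, like the members, was chosen with earlier results of these data known, so the counts are a description. In RasLOW cells 13 were called lower and 1 higher, against 4.05% and 1.92% of all genes tested. The median log2 fold change was -1.13. In RasHIGH cells 18 were called lower and 1 higher, against 11.7% and 10.9%, with a median of -1.42. Without RasLOW replicate 2 and RasHIGH replicate 1 these became 18 lower and 1 higher with a median of -1.36, and 19 lower and 1 higher with a median of -1.27. The share of all genes called without these cultures is not given. Pmaip1 encodes Noxa, a death activator of the same family as Puma, and was at 83.4, 98.6 and 77.0 CPM in WT, at 16.9, 24.97 and 16.9 CPM in RasLOW and at 2.99, 3.40 and 5.59 CPM in RasHIGH cultures (log2 fold changes -2.17, adjusted p = 0.00463, and -4.47, adjusted p = 0.000224). Its 3 groups did not overlap, although the difference between RasHIGH and RasLOW did not pass (-2.29, SE 0.33, adjusted p = 0.0842). The study, with DESeq, does list Pmaip1 among the genes that fall gradually with Ras, at the same log2 fold change. Fas, the death receptor CD95, had mean levels of 11.6 (WT), 0.765 (RasLOW) and 0.195 CPM (RasHIGH) (-3.90, adjusted p = 0.0305, and -5.90, adjusted p = 0.000531), on 1 to 55 counts in each Ras culture. Dcxr, Pidd1, Eda2r and Perp also fell in both populations. Perp, a membrane protein of apoptosis and desmosomes, averaged 578, 237 and 131 CPM (-1.32, adjusted p = 0.00804, and -2.17, adjusted p = 0.000577). Of these 24 genes, 9 were above the remaining Ras cultures in both RasLOW replicate 2 and RasHIGH replicate 1, among them Btg2, Ephx1 and Eda2r, and 1, Gtse1, was below them in both. Of all genes with a mean of at least 1 CPM, 19.4% were above in both and 19.2% below.

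**Figure D3:**
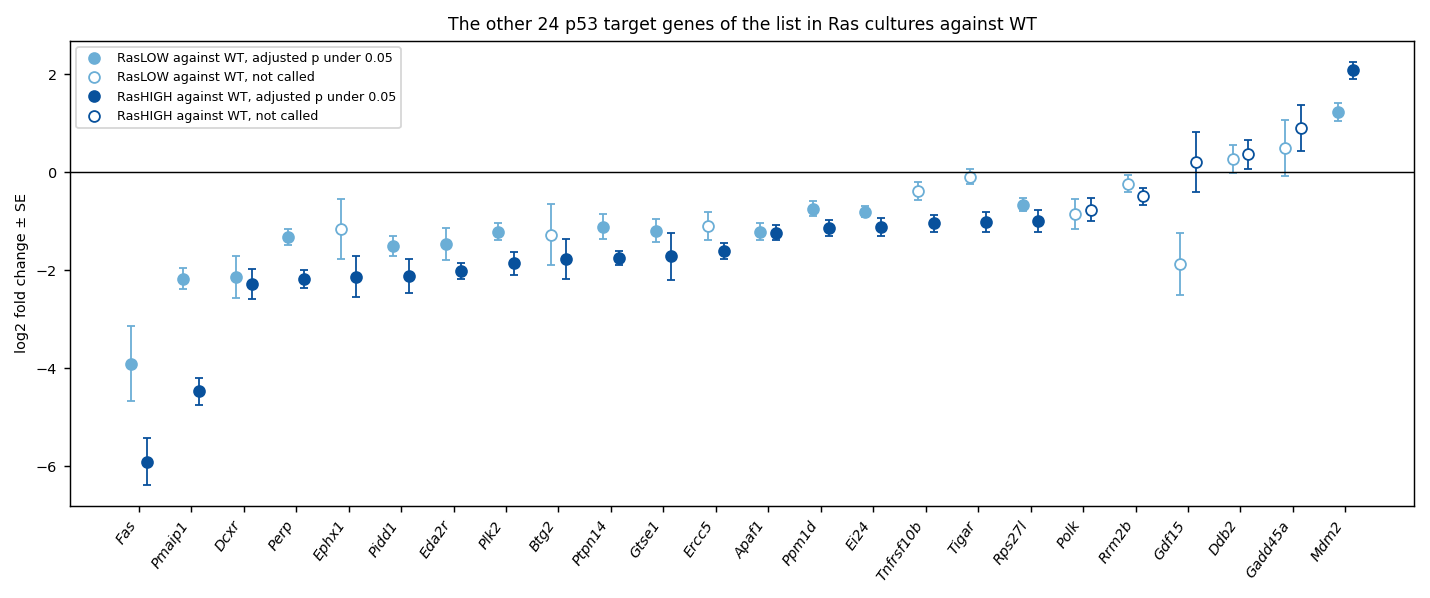
Log2 fold change with its SE (y axis) of 24 further p53 targets (x axis) in RasLOW (light blue) and RasHIGH (dark blue) cultures against WT. Filled points passed at an adjusted p under 0.05. Most lie below 0, with Fas at -3.90 and -5.90 at the left, and Mdm2 at the right is the one called higher.

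Mdm2, which is both a p53 target and the main brake on p53, rose where the called members fell. It was at 1236, 1022 and 1002 CPM in WT, at 2467, 3067 and 2323 CPM in RasLOW and at 5367, 3842 and 4962 CPM in RasHIGH cultures (log2 fold changes 1.24, adjusted p = 0.0146, and 2.08, adjusted p = 0.000569). Its neighbours on chromosome 10 rose as well, which was looked up after the values had been seen. In RasHIGH cells Rap1b had a log2 fold change of 3.95 (adjusted p = 0.000103), Nup107 of 3.98 (adjusted p = 0.00103), Slc35e3 of 3.55 (adjusted p = 0.000158) and Cpm of 2.40 (adjusted p = 0.00665), and none of these 4 genes is on the list of p53 targets. In RasLOW cells Rap1b rose by 3.15 (adjusted p = 0.00218), Nup107 by 3.58 (adjusted p = 0.00463) and Slc35e3 by 3.01 (adjusted p = 0.00218). Cpm, at 2.94 (adjusted p = 0.0609), did not pass there. The part of this neighbourhood in the level of Mdm2 was not tested.

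Among 11 genes for p53 and its regulators, a list that shares Mdm2 and Ppm1d with the targets, 2 were called in RasLOW cells (Mdm2 higher and Ppm1d lower) and 4 in RasHIGH cells (Mdm2 and Cdkn2a higher, Ppm1d and Atm lower). Of all genes tested, 1.92% were higher and 4.05% lower in RasLOW, and 10.9% and 11.7% in RasHIGH cells. Trp53, the gene of p53 itself, was at 303, 297 and 305 CPM in WT, at 307, 185 and 215 CPM in RasLOW and at 177, 269.5 and 286 CPM in RasHIGH cultures, with its lowest levels in the pair named above. It was not called (log2 fold changes -0.39, adjusted p = 0.278, and -0.34, adjusted p = 0.273). Cdkn2a, whose counts do not separate p19ARF from p16INK4A, rose in RasHIGH cells by a log2 fold change of 1.02 (adjusted p = 0.0125) from a mean of 61.2 CPM in WT. By quantitative PCR the study reports p19ARF, and no p16INK4A, in BMEL clones with and without Ras.

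Of 9 paralogues of the members 8 were tested. In RasLOW cells 1 was called higher and 0 lower, against 1.92% and 4.05% of all genes tested. In RasHIGH cells 4 were higher and 0 lower, against 10.9% and 11.7%. Phlda2, the close relative of Phlda3, had mean levels of 5.43 (WT), 32.9 (RasLOW) and 47.4 CPM (RasHIGH) (log2 fold changes 2.55, adjusted p = 0.00696, and 3.09, adjusted p = 0.00128). Ccng2, the sister of Ccng1, rose in RasHIGH cells by a log2 fold change of 1.87 (adjusted p = 0.00142), and Bok and Bak1, relatives of Bax, by 2.85 (adjusted p = 0.0148) and 0.62 (adjusted p = 0.00754).

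How the levels in tumours compare with those in culture was asked of cultured RasHIGH cells, since the study describes RasHIGH cells with the Venus reporter by which tumour cells were sorted. Liver tumour cells had 6 members lower (Bax, Ccng1, Sesn2, Zmat3, Phlda3 and Aen) and 1 higher (Sesn1), against 22.1% and 23% of the 12971 genes tested. Peritoneal tumour cells had 5 lower (Bax, Ccng1, Sesn2, Zmat3 and Aen) and 0 higher, against 18.6% and 19.3% of 12791 genes. Both comparisons share the RasHIGH cultures. Tumour cells had also been dissociated and sorted and were sequenced in lanes 1 to 3, whereas all RasHIGH cultures were in lane 4, and these differences cannot be told apart from growth in the animal.

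Markers of leukocytes, fibroblasts, endothelium and hepatocytes were mostly higher in the tumour cell libraries than in culture, and the 1 mesothelial marker called at each site was lower. Against RasHIGH cells, 8 of 8 leukocyte markers were called higher in liver tumour cells (median log2 fold change 6.35), with 7 of 7 fibroblast markers tested (5.81), 4 of 4 endothelial (8.14) and 4 of 5 hepatocyte markers (3.87). In peritoneal tumour cells these were 6 of 7 leukocyte (6.93), 8 of 8 fibroblast (9.39), 5 of 5 endothelial (9.16) and 1 of 2 hepatocyte markers (2.66). Of the mesothelial markers tested, 1 of 2 was called lower in liver (median -1.40) and 1 of 1 in peritoneal tumour cells (-0.70). Msln, from this list, lay at 555 to 772 CPM in the cultured RasHIGH cells themselves. Summed mesothelial markers reached only 54.0 to 123 CPM in liver and 49.3 to 72.4 CPM in peritoneal stroma. All 10 DREAM targets had values below 0 in both, 2 of them called in each (medians -1.16 and -1.19). Of 5 stress genes chosen after their values were seen, Trib3 (-3.06, adjusted p = 0.000751, and -3.93, adjusted p = 0.000712), Asns and Chac1 fell and Atf3 rose (3.90, adjusted p = 0.000574, and 4.29, adjusted p = 0.00117). Ddit3 was not called in either. Of all genes tested, 22.1% were lower and 23% higher in liver, and 18.6% and 19.3% in peritoneal tumour cells. The part of these marker, cell-cycle and stress genes in the member values was not tested.

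Zmat3 was at 54.1, 52.7, 49.4 and 49.1 CPM in liver tumour cells and at 63.0, 64.9, 70.3 and 70.7 CPM in peritoneal tumour cells, below every culture. The log2 fold changes against RasHIGH cells were -1.70 (SE 0.16, adjusted p = 8.48e-05) and -1.30 (SE 0.16, adjusted p = 0.000924). Ccng1 was at 170.1, 153, 158 and 126 CPM in liver tumour cells and at 192, 205, 189 and 220.3 CPM in peritoneal ones. It was also below every culture, with log2 fold changes of -1.61 (SE 0.17, adjusted p = 0.000165) and -1.19 (SE 0.16, adjusted p = 0.00130).

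Aen fell by 1.33 (adjusted p = 0.000438) and 1.03 (adjusted p = 0.00384) on the log2 scale, Bax by 0.89 (adjusted p = 0.00033) and 0.74 (adjusted p = 0.00249), and Sesn2 by 1.35 (adjusted p = 0.00161) and 1.69 (adjusted p = 0.00119), in liver and peritoneal tumour cells in this order. Phlda3 fell by 0.65 (adjusted p = 0.00378) in liver tumour cells, and its value of -0.18 (adjusted p = 0.200) in peritoneal ones did not pass. Cdkn1a differed in direction from these members, at 397, 409, 510.3 and 381 CPM in liver and 557, 311, 326 and 389 CPM in peritoneal tumour cells. It lay 0.60 (SE 0.23, adjusted p = 0.0586) and 0.51 (SE 0.29, adjusted p = 0.188) above RasHIGH cells on the log2 scale. Without RasHIGH replicate 1 these became 0.92 (adjusted p = 0.000355) and 0.83 (adjusted p = 0.0271), Trp53inp1 was called higher as well at 1.10 (adjusted p = 0.00336) and 0.999 (adjusted p = 0.0123), and Sesn1 in liver tumour cells no longer passed (adjusted p = 0.0516). It also missed without the filter on low counts (adjusted p = 0.0508). Without RasHIGH replicate 3 or liver mouse 1, 2 or 3 Sesn1 did not pass either, with adjusted p between 0.0684 and 0.124.

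**Figure D4:**
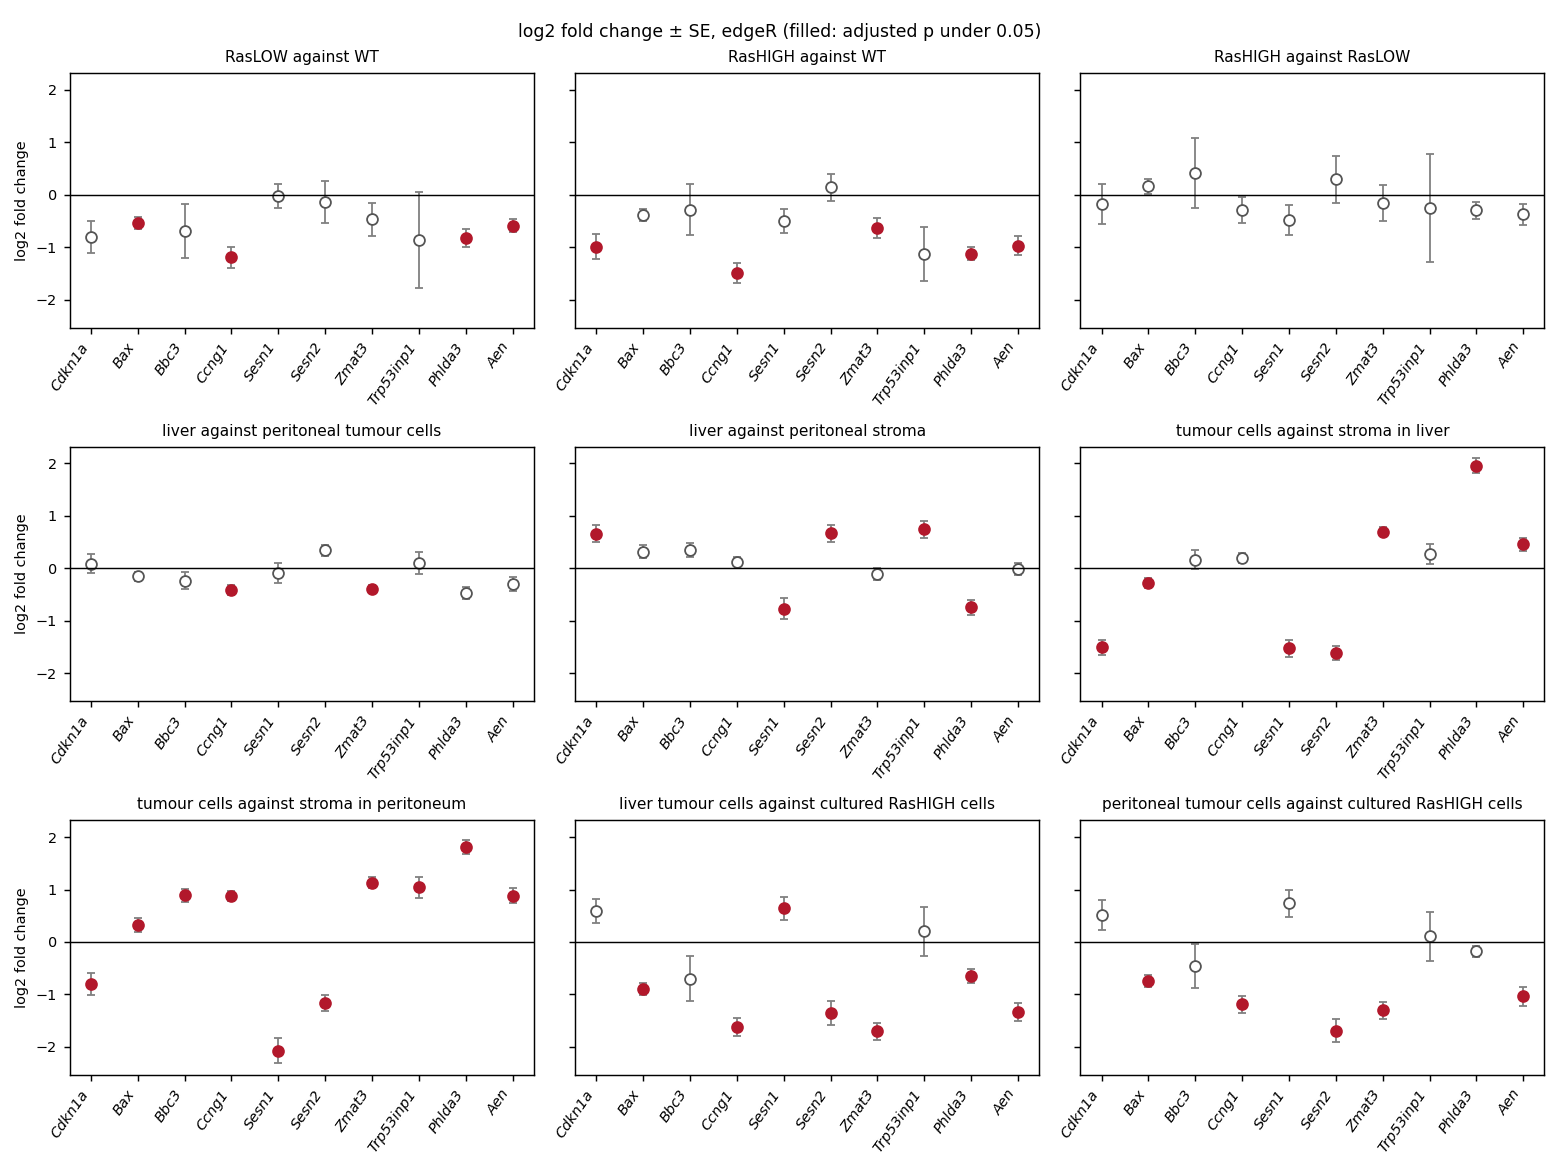
Log2 fold change with its SE (y axis) of the 10 p53 target genes (x axis) in each of the 9 comparisons, first group against second. Filled red points passed at an adjusted p under 0.05 in edgeR's test. Phlda3 stands highest in tumour cells against stroma, at 1.96 in liver and 1.81 in peritoneum, where Cdkn1a, Sesn1 and Sesn2 lie below 0.

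Among further targets in tumour cells against RasHIGH cultures, 12 of 23 tested were lower and 5 higher in liver, and 11 were lower and 3 higher in peritoneum. Of all genes tested, 22.1% were lower and 23% higher in liver, and 18.6% and 19.3% in peritoneum. Ephx1, a detoxifying hydrolase, averaged 72.3 CPM in RasHIGH cells and 11.95 and 14.9 CPM in liver and peritoneal tumour cells (log2 fold changes -2.59, adjusted p = 0.000596, and -2.25, adjusted p = 0.00551). Phlda2, a paralogue outside the list of targets, fell by 2.98 (adjusted p = 5.75e-05) and 2.68 (adjusted p = 0.00134). The target Gdf15, a stress cytokine, fell by 2.35 (adjusted p = 0.00635) and 2.43 (adjusted p = 0.00960). Gdf15 lay at 50.1, 10.9 and 10.8 CPM in the RasHIGH cultures. Without RasHIGH replicate 1 Gdf15 fell by 1.21 (adjusted p = 0.000345) and 1.30 (adjusted p = 0.00124), and Ephx1 by 1.94 (adjusted p = 1.99e-06) and 1.604 (adjusted p = 0.00315). Eda2r, a receptor of the TNF family, fell by 2.46 (adjusted p = 3.42e-05) in liver, and Gtse1 by 1.89 (adjusted p = 0.0104) in peritoneum. Btg2, an antiproliferative factor, rose by 1.93 (adjusted p = 0.00504) and 2.03 (adjusted p = 0.0111), and by 2.61 (adjusted p = 9.08e-06) and 2.71 (adjusted p = 0.000718) without that culture. In all, 12 targets were then lower and 6 higher in liver, and 12 lower and 4 higher in peritoneum. The share of all genes called without that culture is not given. Mdm2 averaged 6567 and 5375 CPM, and the difference from RasHIGH passed in liver (0.48, adjusted p = 0.0406) and not in peritoneum (0.20, adjusted p = 0.365). Pmaip1 was higher than in RasHIGH cells in both (1.45, adjusted p = 0.0264, and 1.69, adjusted p = 0.0110) and stayed below 20.5 CPM in every tumour cell library. Trp53 fell by 0.80 (adjusted p = 0.00595) and 0.58 (adjusted p = 0.0283).

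Tumour cells were compared with the stroma sorted from the same tumours. In liver 3 members were higher in tumour cells (Phlda3, Zmat3 and Aen) and 4 lower (Cdkn1a, Sesn1, Sesn2 and Bax), against 38.4% and 39.4% of 14620 genes. In peritoneum 7 were higher (Phlda3, Zmat3, Trp53inp1, Bbc3, Aen, Ccng1 and Bax) and 3 lower (Sesn1, Sesn2 and Cdkn1a), against 39.5% and 37.1% of 14584 genes. With all 25 libraries in one fit the peritoneal calls of Bbc3 (0.79, adjusted p = 0.0601), Trp53inp1 (0.94, adjusted p = 0.134) and Bax (0.22, adjusted p = 0.0762) were lost. Most of the genes tested were called in each, so the counts say little about these genes as a group. Stroma is a mixture: summed CPM of 8 leukocyte markers lay between 6964 and 8449 in liver and between 5176 and 6672 in peritoneal stroma, and those of 8 fibroblast markers between 4126 and 8361 and between 54717 and 83133. In tumour cells the leukocyte sums were 32.6 to 46.1 and 24.1 to 225 CPM, and the fibroblast sums 41.5 to 62.6 and 220 to 1523 CPM, highest in peritoneal mouse 1. Summed tumour cell markers lay between 1201 and 1536 CPM in liver stroma and between 665 and 1081 CPM in peritoneal stroma. In tumour cells these sums were 7713 to 9348 CPM in liver and 9262 to 10857 CPM in peritoneum. The part of cell composition in the results was not tested.

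Cdkn1a was most abundant in stroma, at 1183, 895, 1260.2 and 1379 CPM in liver and at 627, 604, 770.1 and 886 CPM in peritoneum. Every stromal library exceeded every culture and every tumour cell library. Tumour cells had a log2 fold change against stroma of -1.50 (SE 0.14, adjusted p = 1.25e-06) in liver and of -0.80 (SE 0.21, adjusted p = 0.00699) in peritoneum. Sesn1 was at 16.3, 23.5, 19.2 and 16.3 CPM in liver stroma and at 44.8, 26.2, 25.8 and 27.5 CPM in peritoneal stroma, against 5.22 to 7.60 and 5.35 to 8.40 CPM in tumour cells. Its log2 fold changes were -1.52 (SE 0.16, adjusted p = 3.23e-06) and -2.07 (SE 0.24, adjusted p = 6.22e-05).

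Sesn2 was also lower in tumour cells, which held 18.8 to 25.1 CPM in liver and 16.2 to 18.7 CPM in peritoneum. Stroma held 59.2 to 79.1 and 34.2 to 53.9 CPM. The log2 fold changes were -1.61 (SE 0.12, adjusted p = 2.17e-07) and -1.16 (SE 0.15, adjusted p = 0.000149).

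Phlda3 showed the opposite order, at 47.4 to 67.1 CPM in liver and 68.2 to 84.8 CPM in peritoneal tumour cells, against 11.51 to 17.0 and 18.97 to 27.5 CPM in stroma. It was higher in tumour cells by a log2 fold change of 1.96 (SE 0.14, adjusted p = 1.07e-07) and 1.81 (SE 0.12, adjusted p = 4.39e-06). Zmat3 rose by 0.70 (adjusted p = 7.72e-06) and 1.13 (adjusted p = 2.2e-05), and Aen by 0.46 (adjusted p = 0.00384) and 0.89 (adjusted p = 0.000418). Bax carried opposite signs, -0.28 (adjusted p = 0.0244) in liver and 0.32 (adjusted p = 0.0451) in peritoneum, with overlapping groups in both, and was lost in liver without stroma of mouse 3 or 4 or tumour cells of mouse 2 (adjusted p 0.0581 to 0.0775). In peritoneum it was lost without stroma of mouse 1 or 2 or tumour cells of mouse 2, 3 or 4 (adjusted p 0.0938 to 0.146), with RLE scaling (adjusted p = 0.204) and in DESeq2 (adjusted p = 0.259). With the mouse as a block Ccng1 passed in liver too (0.19, adjusted p = 0.0333), against 0.20 (adjusted p = 0.0642) without it.

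The list of further targets split in the same comparisons, with 7 higher and 7 lower of 24 in liver and 12 higher and 8 lower in peritoneum. Of all genes tested, 38.4% were higher and 39.4% lower in liver, and 39.5% and 37.1% in peritoneum. Fas was near 0 in tumour cells, with means of 0.0519 and 0.291 CPM, and at 15.1 and 13.6 CPM in stroma (log2 fold changes -8.19, adjusted p = 8.27e-09, and -5.57, adjusted p = 2.34e-05). Pmaip1 averaged 175 and 102 CPM in stroma (-4.02, adjusted p = 3.43e-07, and -2.94, adjusted p = 2.58e-05), and Perp was higher in tumour cells (2.59, adjusted p = 2.72e-07, and 3.77, adjusted p = 5.27e-07). Among the regulators and paralogues, Cdkn2a was higher in tumour cells by 2.75 (adjusted p = 4.48e-10) and 3.91 (adjusted p = 5.27e-07), and Phlda2 by 2.77 (adjusted p = 2.62e-07) and 3.71 (adjusted p = 5.41e-05). The target Btg2 was lower in liver (-3.08, adjusted p = 1.13e-07), and the paralogue Cdkn1c, the p57 relative of p21, in peritoneum (-4.23, adjusted p = 2.72e-05).

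The sites of growth were then compared within each cell type. Between liver and peritoneal tumour cells 2 members were lower in liver, Ccng1 and Zmat3, against 1.87% of the 13074 genes tested, and 0 were higher, against 1.33%. Zmat3 had a log2 fold change of -0.40 (SE 0.07, adjusted p = 0.0243) and Ccng1 of -0.42 (SE 0.10, adjusted p = 0.0479). Liver and peritoneal libraries did not overlap for 4 members, against 12.1% of the genes tested: these 2, Phlda3 (-0.46, SE 0.11, adjusted p = 0.0527) and Sesn2 (0.35, SE 0.10, adjusted p = 0.0990). The samples are paired by mouse, and with the mouse as a replicate block 0 members passed, with adjusted p of 0.0854 for Zmat3 and 0.117 for Ccng1. With all 25 libraries in one fit 0 passed either (adjusted p = 0.287 and 0.101). Both were lost without peritoneal mouse 3 or liver mouse 2, 3 or 4 (adjusted p 0.0518 to 0.136), and Ccng1 was lost without peritoneal mouse 2 or 4 as well (0.0818 and 0.0908). Phlda3 passed without liver mouse 3 (adjusted p = 0.0355) or peritoneal mouse 1 (0.0281). Of the other listed genes 4 were called, Eda2r (-0.86, adjusted p = 0.0491), Cdkn2a (-0.47, adjusted p = 0.0319) and the death receptor gene Tnfrsf10b (-0.39, adjusted p = 0.0477) lower and the kinase gene Plk2 (0.54, adjusted p = 0.0477) higher in liver. All 8 fibroblast markers had lower values in liver tumour cells, 6 of them called, with a median log2 fold change of -3.55, and their part in the member values was not tested.

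Stroma differed more between the sites. Liver stroma had 3 members higher (Trp53inp1, Sesn2 and Cdkn1a) and 2 lower (Sesn1 and Phlda3), against 14.9% and 18.5% of 14755 genes. Trp53inp1 was at 42.2, 54.1, 53.1 and 40.3 CPM in liver and at 36.0, 25.2, 26.7 and 21.5 CPM in peritoneal stroma, a log2 fold change of 0.75 (SE 0.16, adjusted p = 0.00677), which was lost with all 25 libraries in one fit (0.79, adjusted p = 0.339). Sesn2 and Cdkn1a were higher by 0.67 (SE 0.16, adjusted p = 0.00962) and 0.66 (SE 0.16, adjusted p = 0.0108). Sesn1 was lower by a log2 fold change of -0.77 (SE 0.20, adjusted p = 0.0152) and Phlda3 of -0.74 (SE 0.15, adjusted p = 0.00390), and the 2 sites did not overlap for any of these 5 genes, nor for Bbc3 or Ccng1, against 34.9% of the genes tested. With the mouse as a block Bax passed too (0.32, adjusted p = 0.0186, against 0.0816 without it). Among the other listed genes Cdkn1c (-2.17, adjusted p = 0.000777), Phlda1 (-0.86, adjusted p = 0.000827) and Eda2r (-0.76, adjusted p = 0.0193) were lower in liver stroma, and Mdm2 (1.06, adjusted p = 0.00582) and Pmaip1 (0.73, adjusted p = 0.00197) higher. The Mdm2 neighbours Rap1b (0.70, adjusted p = 0.00666), Nup107 (0.64, adjusted p = 0.0148) and Slc35e3 (0.63, adjusted p = 0.00770) were called higher as well. The 8 fibroblast markers were all lower in liver stroma (median log2 fold change -3.45), as were 7 of 10 DREAM targets (-0.53). Called higher there were 5 of 5 hepatocyte markers tested (9.46), 5 of 8 leukocyte markers (0.41) and 4 of 6 tumour cell markers (0.63), and the part of cell composition was not tested.

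Whether the site mattered differently in tumour cells and stroma was tested directly, as the site effect in tumour cells minus that in stroma over the 16 sorted libraries. The difference passed for 2 of 10 members, both negative, against 7.5% of 15331 genes with a negative call. It was -0.63 (SE 0.13, adjusted p = 0.00395) on the log2 scale for Ccng1 and -0.55 (SE 0.17, adjusted p = 0.0399) for Bax. Ccng1 was lost with all 25 libraries in one fit (-0.59, adjusted p = 0.0583), and Bax without the filter on low counts (adjusted p = 0.0866). The site effects were 0.13 in stroma and -0.42 in tumour cells for Ccng1, and 0.32 in stroma and -0.15 in tumour cells for Bax, of which the Ccng1 value in tumour cells alone was called. The test for Bax was lost without any one of 12 of the 16 libraries (adjusted p 0.0619 to 0.14), with the exceptions of liver tumour mouse 4, peritoneal tumour mouse 1, liver stroma mouse 2 and peritoneal stroma mouse 4. With the mouse as a block Zmat3 passed as well (-0.38, adjusted p = 0.0464, against 0.0618).

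Across groups, Ccng1, Zmat3, Phlda3 and Aen shared one order of mean levels for the first 3 places, with WT highest, RasLOW next and RasHIGH the third, and both tumour cell groups below all cultures. Ccng1 fell from a mean of 1275 ± 75.3 (SD, n = 3) CPM in WT to 569.6 ± 128 in RasLOW, 465 ± 112 in RasHIGH, 202 ± 14.3 (n = 4) in peritoneal tumour cells, 152 ± 18.5 in liver tumour cells, 129.6 ± 3.54 in liver stroma and 115 ± 9.68 CPM in peritoneal stroma. Of its neighbours in this order RasLOW and RasHIGH overlapped, as did liver tumour cells and liver stroma. Phlda3 had 7 groups of which no neighbours overlapped, from 185 ± 20.3 CPM in WT to 14.1 ± 2.28 CPM in liver stroma. Trp53inp1 was the reverse case, since among its 7 groups only peritoneal stroma, at 27.3 ± 6.16 CPM, was set off from its neighbour in the order.

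Genes most like each member over the 25 libraries were found by Pearson's r of log2(CPM + 1), as a description in which differences between cell types weigh most. Ccng1 was most like Thyn1 (r = 0.982), followed by Eda2r (r = 0.973), another p53 target. Zmat3 was most like Psrc1 (r = 0.981), Phlda3 like Fads3 (r = 0.986), Aen like Aaas (r = 0.982) and Cdkn1a like Dusp16 (r = 0.947). The highest values for Trp53inp1 (Ascc1, r = 0.845) and Bbc3 (Ube2h, r = 0.871) were lower. Bax was most like P2ry2 (r = 0.947), Sesn1 like Etv1 (r = 0.973) and Sesn2 like Orai2 (r = 0.898).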

How the data were processed

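RNA of 9 cultures and 16 sorted cell populations was sequenced and mapped by the authors, and the deposited table holds raw read counts per gene, not normalised. The study's methods name TopHat2 and mm9, whereas the submitters' processing notes list Bowtie with the builds mm8 and mm10, so the build behind the counts is unsettled. Gene positions and sequences given here are those of mm9. The counting program, annotation and strand setting are not given in the sources used here. Groups were taken from the sample labels. The 10 members and all gene lists were chosen with earlier results of these data known. Counts were tested with edgeR 4.0.16 in R 4.3.3 by the quasi-likelihood F-test, with TMM scaling, filterByExpr at a minimum count of 10, the libraries of the 2 compared groups alone in each of 9 fits and Benjamini-Hochberg adjustment over all genes tested. The difference between site effects was fitted over the 16 sorted libraries. Levels are CPM with TMM factors from all 25 libraries. Sorted populations are paired by mouse, since tumour cells and stroma of both sites came from the same animals, and within tumours same-numbered samples correlated at r = 0.121 to 0.320 in liver and 0.0657 to 0.303 in peritoneum after group means were removed. Outside the members, up to 5 called genes with the largest change in the lists of targets, regulators and paralogues were named per comparison, with Trp53, Mdm2 and Pmaip1 in all cultures. Perp, Eda2r, Ppm1d, Atm, Cdkn2a, Ccng2 and Bak1 in cultures, the cell-cycle genes and Mdm2's neighbours were singled out after their values were seen. Alternatives were DESeq2 1.42.0, RLE scaling, no filter on low counts, all 25 libraries in one fit, the study's thresholds on fold change and unadjusted p, the replicate block, lane 4 alone and leaving out each library. The scripts were tested on simulated counts. Floors of 3 counts cover counting error only. Exon lengths and positions came from GENCODE annotation of NCBIM37.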

Additional observations from a re-analysis of the deposited data

Results flagged for a closer look

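In 40 groups of 4 libraries (10 genes in 4 groups), 2 single libraries stood apart from the other 3 by Dixon's test, and chance gives about 1 in 20. Bax in liver stroma of mouse 2 was at 58.9 CPM, below 74.7 to 76.8 CPM in the other 3 mice. Sesn1 in peritoneal stroma of mouse 1 was at 44.8 CPM, above 25.8 to 27.5 CPM in the other 3 mice. The effect of the site (liver against peritoneum) differed between tumour cells and stroma by edgeR's test for Bax (-0.55 on the log2 scale, adjusted p = 0.0399) and Ccng1 (-0.63, adjusted p = 0.00395). As given above, Bax was lost when any of most single libraries was left out and without the filter on low counts. Ccng1 was lost with all 25 libraries in one fit.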

How the results depend on the processing

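The number of members called depended on single libraries and thresholds, and the cause was not tested. The share of all genes called under each alternative is not given, so the counts cannot be set against it. Leaving out each library in turn gave 0 to 8 calls in RasLOW against WT, 3 to 7 in RasHIGH against WT, 0 in RasHIGH against RasLOW, 0 to 3 between tumour cells of the sites, 5 to 7 between stroma of the sites, 6 to 8 and 9 to 10 in tumour cells against stroma of liver and peritoneum, 6 to 8 and 5 to 7 in liver and peritoneal tumour cells against RasHIGH, and 1 to 3 for the difference between site effects. By the study's thresholds (log2 fold change of 1.5 with unadjusted p of 0.01 in cultures, 1 with 0.05 in sorted cells) 0 members passed in RasLOW or RasHIGH against WT and between sites in tumour cells or stroma, 4 in liver and 5 in peritoneal tumour cells against stroma, and 4 in liver tumour cells against RasHIGH. Without the filter on low counts 2 passed in RasLOW against WT and 1 for the difference between site effects. With all 25 libraries in one fit 0 passed between tumour cells of the sites and 1 for the difference. With lane 4 alone 0 passed in RasLOW and RasHIGH against WT. Without both RasHIGH replicate 1 and RasLOW replicate 2, an alternative chosen after seeing the data, 8 passed in RasLOW against WT. With the replicate block 0 passed in RasLOW against WT and 0 between tumour cells of the sites. Culture numbers do not pair the cultures, since deviations of same-numbered cultures correlated between -0.690 and 0.356.

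Members reversed in sign only where they were not called. Sesn1 in RasLOW against WT became 0.013 with all 25 libraries, Sesn2 in RasHIGH against WT -0.064 in lane 4 and -0.15 without both cultures, and Aen between stroma of the sites 0.041 with all libraries and 0.0011 with the replicate block. In RasHIGH against RasLOW Trp53inp1 became 0.71 with the replicate block and 1.09 without both cultures, where Ccng1 was 0.042 and Zmat3 0.087. Leaving out 1 library in turn gave values of both signs for Sesn1 (-0.15 to 0.080) and Sesn2 (-0.74 to 0.19) in RasLOW against WT, for Sesn2 (-0.15 to 0.36) and Bbc3 (-1.06 to 0.066) in RasHIGH against WT, and in RasHIGH against RasLOW for Sesn2 (-0.027 to 0.88), Cdkn1a (-0.48 to 0.29), Zmat3 (-0.38 to 0.29), Trp53inp1 (-1.12 to 1.97) and Bbc3 (-0.36 to 1.31). So it did for Sesn1 (-0.22 to 0.0061), Cdkn1a (-0.024 to 0.31) and Trp53inp1 (-0.11 to 0.23) between tumour cells of the sites, Aen (-0.10 to 0.050) between stroma, and, against RasHIGH, Bbc3 (-1.05 to 0.10) and Trp53inp1 (-0.16 to 1.10) in liver and Bbc3 (-0.81 to 0.34) and Trp53inp1 (-0.27 to 0.999) in peritoneal tumour cells.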

Other observations

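Of 5 genes of the integrated stress response, chosen after their values were seen, 3 (Ddit3, Trib3 and Atf3) were above the remaining Ras cultures in both RasLOW replicate 2 and RasHIGH replicate 1. Ddit3, the stress factor CHOP, was at 43.0 and 64.0 CPM there, against 7.58 to 20.2 CPM in the remaining Ras cultures and 10.3 to 11.52 CPM in WT. Trib3, a target of the same response, was at 101 and 169 CPM, against 12.7 to 93.6 CPM in the remaining Ras cultures and 3.21 to 6.48 CPM in WT. Atf3 was at 14.9 and 10.99 CPM, against 1.89 to 7.09 CPM and, in WT, 8.29 to 13.1 CPM. Asns, at 240.4 and 299 CPM against 135 to 279 CPM, and Chac1, at 28.4 and 55.9 CPM against 9.78 to 48.5 CPM, did not separate the pair. Of the 13184 genes with a mean of at least 1 CPM, 19.4% were above the remaining Ras cultures in both. Trib3, Asns and Chac1 were called higher than WT in both populations by edgeR's test, with log2 fold changes of 3.34, 1.26 and 2.37 in RasLOW (adjusted p = 0.0495, 0.0341 and 0.0311) and 4.41, 1.70 and 3.11 in RasHIGH cells (adjusted p = 0.00268, 0.00142 and 0.00243). Of all genes tested, 1.92% were higher in RasLOW and 10.9% in RasHIGH cells. Ddit3 (0.96 in RasLOW and 1.48 in RasHIGH cells) and Atf3 (-0.45 and -0.94) were not called. Sesn2, the member known to respond to both p53 and this response, was at 76.5 CPM in RasLOW replicate 2 and 79.4 CPM in RasHIGH replicate 1. The part of these stress genes in the member values was not tested.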
